A study of Mus musculus with 7 samples.

Results

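Imprinted genes are read mainly from the copy inherited from one parent, which is set by DNA methylation laid down in the egg or sperm, and several of them restrain growth and cell division. The genes described here are 9 imprinted genes taken by symbol from the 32285 genes counted in mouse bone marrow LSK cells (lineage-negative, Sca-1 and cKit positive), the sorted fraction that holds the hematopoietic stem cells and early multipotent progenitors: Meg3, Rian, Mirg, H19, Grb10, Cdkn1c, Ndn, Gnas and Igf2r. They were taken by name, with earlier results of these data known, and the rule uses no measured value. Transcripts were counted in single cells of 7 droplet libraries, 3 labelled B4galt1 knockout (genotype 129S1/C57Bl/6, B4-/-) and 4 labelled WT (129S1/C57Bl/6). B4galt1 encodes a galactosyltransferase of the Golgi, and the title of the study concerns glycosylation and the megakaryocytic fate of stem cells. The labels give no age or treatment, do not say whether each library is a separate mouse, and do not state which part of B4galt1 is deleted, so p-values measure the spread between these libraries only.

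The 7 libraries held 14970791 to 89747946 unique molecular identifiers (UMIs, each marking 1 captured RNA molecule), and 24430 of 36465 barcodes were kept as cells, with a median of 8046 to 11083.5 UMIs per kept cell of a library. The opening bases of the barcodes fell into 2 sets, called list A (knockout-labelled replicates 1 and 2, WT-labelled replicates 1, 2 and 3) and list B (knockout-labelled replicate 3 and WT-labelled replicate 4). The share of barcodes kept was 32.4% to 49.9% in the list A libraries and 98.3% and 96.2% in knockout-labelled replicate 3 and WT-labelled replicate 4. Kept cells had a median mitochondrial share of 3.57% to 4.64% by library in list A and of 2.13% and 2.19% in list B. The part of these differences in the values below was not tested. Ribosomal protein genes took 13.7% to 20.8% of UMIs in list A and up to 30.2% in list B. The 2 list B libraries shared 88 cell barcodes, 68 of them kept in both, and any other pair of libraries shared at most 7. B4galt1 RNA, the check of the labels, stood at 51.2, 55.6 and 27.4 CPM (the usual depth-scaled unit, UMIs of a gene over all UMIs of the sum) in the knockout-labelled libraries and at 56.4, 69.2, 56.7 and 34.8 CPM in the WT-labelled ones, so the groups overlapped over all libraries. Within each list the knockout-labelled libraries had the lower values (55.6 against 56.4 CPM at the nearest in list A), and list B has 1 library per label. RNA of the gene was thus present under both labels, and a 3′ count outside the deleted part checks nothing. Of the LSK markers, Kit stood at 137 to 311 CPM and Ly6a (Sca-1) at 16.6 to 48.2 CPM, while Cd8a, a T cell marker, was at most 0.437 CPM.

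Cells were sorted into states by counting how many distinct marker genes had at least 1 UMI. A cell was stem-gated with at least 3 of 9 stem cell genes (Procr, Mecom, Hlf, Fgd5, Mllt3, Hoxb5, Slamf1, Trpc6, Ctnnal1) and no committed gate passed. None of the imprinted genes was used in a gate. The stem gate held 11137 cells, 45.6% of those kept, and the Flt3 multipotent, granulocyte-monocyte, lymphoid and ungated states held 3601, 3441, 1252 and 2740. Of the stem-gated cells, 4573 (41.1%) had exactly 3 markers, and 3648 cells with 2 markers lay just outside. Libraries labelled knockout had fewer stem-gated cells, 27.8% to 42.9% of their kept cells against 46.8% to 68.3% in those labelled WT. Earlier results of these data had found 3 of the 9 gate genes (Hlf, Fgd5 and Trpc6) lower under the knockout label. The part of this in the shares of stem-gated cells was not tested. These are gates on RNA, not a sort of long-term stem cells. Of a list of 10 stromal and endothelial genes, Pecam1 stood at 69.4 to 187 CPM in stem-gated cells, Emcn at 26.1 to 40.7, Pdgfrb at 13.5 to 40.4 and Col1a2 at 2.84 to 4.66, while Kdr, Pdgfra, Cxcl12, Lepr, Col1a1 and Cdh5 were at most 5.08, 2.59, 1.24, 0.442, 0.206 and 0.0345 CPM. Pecam1 and Emcn are also known in hematopoietic stem cells, and the part of other cells in the values below was not tested.

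The genes fall into a few roles. Meg3, Rian and Mirg are long noncoding RNAs transcribed in the same direction from the Dlk1-Dio3 region of chromosome 12 on the maternal copy, and H19 is a maternally expressed noncoding RNA beside Igf2. Cdkn1c encodes p57, an inhibitor of cyclin-dependent kinases that is known to hold stem cells out of the cell cycle. Grb10 encodes an adaptor that dampens insulin and IGF receptor signalling, Igf2r a receptor that carries IGF2 to lysosomes, and Gnas the stimulatory G protein alpha subunit that couples receptors to cAMP. Ndn encodes necdin, a growth-restraining protein of the MAGE family read from the paternal copy. Studies of mouse bone marrow have described the Meg3 region, H19, Cdkn1c and Ndn in stem cells and their quiescence. The UMI counts do not tell the parental copies apart, and nothing below bears on imprinting itself.

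In GRCm38 the 3 noncoding genes of the Dlk1-Dio3 region lay on the plus strand within 208.46 kb: Meg3 (ENSMUSG00000021268) at chr12:109541001-109571726, Rian (ENSMUSG00000097451) at chr12:109603940-109661716 and Mirg (ENSMUSG00000097391) at chr12:109729764-109749460. H19 (ENSMUSG00000000031, chr7:142575529-142578143), Cdkn1c (ENSMUSG00000037664, chr7:143458339-143461050), Grb10 (ENSMUSG00000020176, chr11:11930508-12038683) and Igf2r (ENSMUSG00000023830, chr17:12682406-12769664) lay on the minus strand. Ndn (ENSMUSG00000033585, chr7:62346569-62350262) and Gnas (ENSMUSG00000027523, chr2:174284320-174346744) lay on the plus strand. RefSeq places 1 microRNA hairpin within Meg3, 3 within Rian, 14 within Mirg and 1 within H19. Those hairpins are not measured by these counts.

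The sequences before the start sites of 4 genes that were higher together in stem-gated cells are shown, to set the promoter of the most strongly raised gene beside the others. Each is the 250 bases upstream of a RefSeq start in GRCm38.p6, 5′ to 3′ on the gene's own strand, with matches to 4 searched motifs in capitals. The windows are chr12:109540746-109540995 for Meg3, chr12:109603695-109603944 for Rian, chr11:12037421-12037670 for Grb10 (minus strand) and chr7:62348027-62348276 for Ndn. Those of Grb10 and Ndn lie within the gene spans given above, which come from another annotation. Cdkn1c, also raised, had no start in the RefSeq source used.
Meg3: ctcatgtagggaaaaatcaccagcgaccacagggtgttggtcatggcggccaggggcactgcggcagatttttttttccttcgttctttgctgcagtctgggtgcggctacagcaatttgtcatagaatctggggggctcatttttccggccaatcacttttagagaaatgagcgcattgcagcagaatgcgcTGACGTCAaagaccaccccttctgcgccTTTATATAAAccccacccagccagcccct
Rian: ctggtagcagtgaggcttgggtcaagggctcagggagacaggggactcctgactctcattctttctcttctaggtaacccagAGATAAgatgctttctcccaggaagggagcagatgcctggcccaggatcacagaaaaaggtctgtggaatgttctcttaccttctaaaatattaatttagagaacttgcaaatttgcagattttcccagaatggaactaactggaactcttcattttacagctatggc
Grb10: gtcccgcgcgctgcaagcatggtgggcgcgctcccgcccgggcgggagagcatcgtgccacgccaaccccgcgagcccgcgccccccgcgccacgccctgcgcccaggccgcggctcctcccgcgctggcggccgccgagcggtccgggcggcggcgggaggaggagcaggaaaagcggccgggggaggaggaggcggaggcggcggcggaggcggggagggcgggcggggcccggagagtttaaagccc
Ndn: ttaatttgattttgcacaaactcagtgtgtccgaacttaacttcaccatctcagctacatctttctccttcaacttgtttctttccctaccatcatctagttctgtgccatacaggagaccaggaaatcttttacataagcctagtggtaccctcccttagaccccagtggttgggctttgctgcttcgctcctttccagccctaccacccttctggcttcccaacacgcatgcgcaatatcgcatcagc
The motifs, searched on both strands, were the cAMP response element TGACGTCA, the GATA motif AGATAA, the ETS motif ACCGGAAGT and the TATA motif TATAAA. The Meg3 window held TGACGTCA beginning 57 bases before the start, with 2 overlapping TATAAA matches on opposite strands beginning 29 and 25 bases before it. TGACGTCA was found in 1.88% of 27025 RefSeq windows of 300 bases (250 before to 50 after a start) and TATAAA in 14.2%. The Rian window held 1 AGATAA match, which 11.4% of windows have, and ACCGGAAGT, in 1.1% of windows, was in none of the 4. The 300-base windows held 45 CpG pairs for Grb10, 13 for Meg3, 11 for Ndn and 0 for Rian, beside a median of 7 over all windows. Another RefSeq start of Meg3 and of Grb10, not shown, held 1 and 9 CpG pairs and no motif match. The motif matches are matches of letters, not binding sites.

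Meg3, the founding transcript of the region, was concentrated in stem-gated cells. In knockout-labelled replicates 1, 2 and 3 it stood at 35.1, 40.1 and 11.0 CPM in stem-gated cells and at 3.39, 5.52 and 2.14 CPM in other progenitors, meaning all other kept cells outside the T/NK and neutrophil gates. In WT-labelled replicates 1 to 4 it stood at 7.28, 15.0, 5.71 and 12.9 CPM in stem-gated cells and at 1.35, 1.47, 0.506 and 2.13 CPM in other progenitors. The lowest stem-gated library lay above the highest of the other progenitors, so the groups did not overlap. Stem-gated cells gave 1485 of the 1899 Meg3 UMIs counted (78.2%). The log2 fold change, stem-gated minus other progenitors within libraries, was 2.67 (SE 0.13, edgeR quasi-likelihood test, Benjamini-Hochberg adjusted p 2.43e-07).

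That test was run on summed counts with the library as a block, and it called 7730 of 14520 genes (53.2%), 23.8% higher and 29.5% lower in stem-gated cells. Of the 9 imprinted genes 7 passed the filter on low counts, 6 of them were called higher and none lower. The median log2 fold change over the 7 tested was 1.72, beside -0.02 over all genes tested. Since over 1 in 2 genes was called, the sizes and the values per library carry the description.

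**Figure D1:**
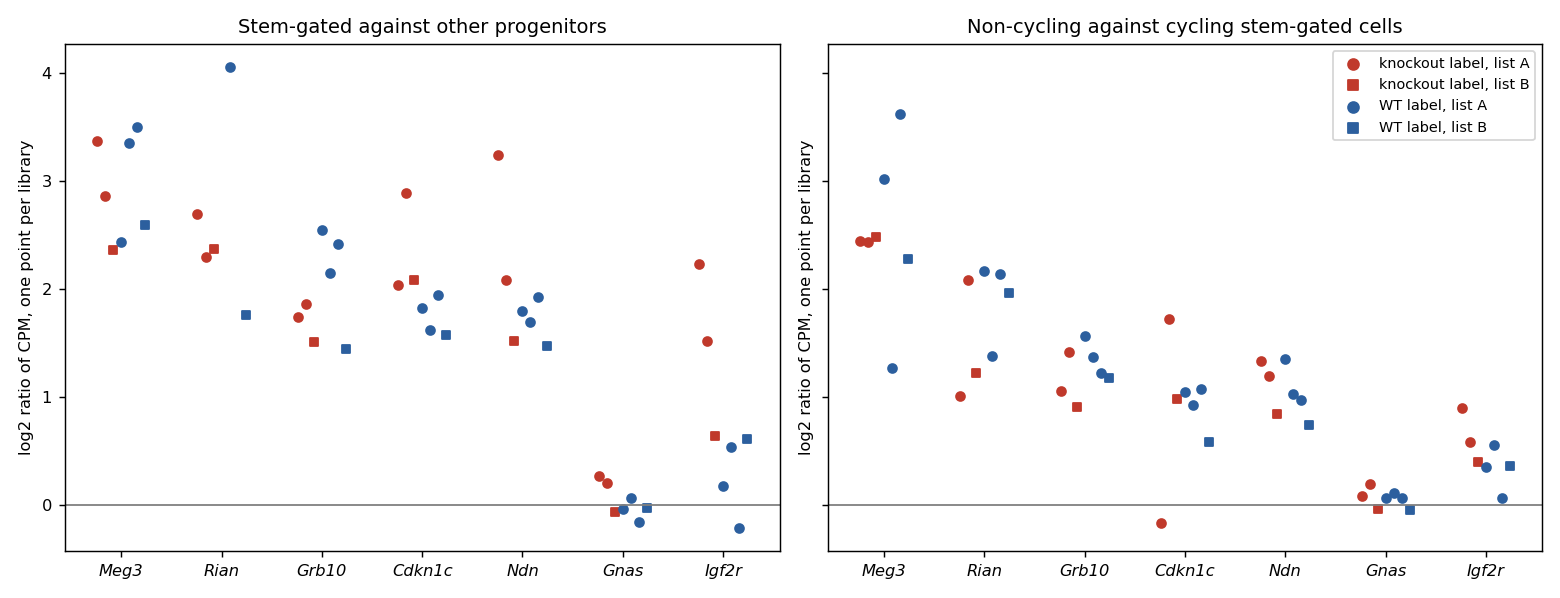
Log2 ratio of CPM in each of the 7 libraries (1 point per library, colour for label, square for list B), for stem-gated against other progenitors on the left and for non-cycling against cycling stem-gated cells on the right. Meg3, Grb10, Cdkn1c and Ndn lie above 0 in all 7 libraries on the left, Gnas lies near 0 on both sides, and Rian has 2 libraries without a point on the left because other progenitors held 0 UMIs.

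Rian, the noncoding RNA next downstream of Meg3 and host of small nucleolar RNAs, was scarce but followed the same direction in all 7 libraries. It had 213 UMIs in all, 157 of them (73.7%) in stem-gated cells. Stem-gated levels were 3.53, 6.78 and 0.621 CPM in the knockout-labelled libraries and 1.93, 3.49, 0.468 and 0.940 CPM in the WT-labelled ones. Other progenitors held 0.545, 1.38 and 0.12 CPM in the knockout-labelled libraries and 0.210 and 0.277 CPM in WT-labelled replicates 2 and 4. WT-labelled replicates 1 and 3 held 0 UMIs there, which allows up to 0.506 CPM in each (3 counts, counting error only). The 2 groups of values overlapped between libraries, and the log2 fold change was 2.35 (SE 0.30, adjusted p 0.000137, edgeR).

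Mirg, the microRNA host at the far end of the region, and H19 were too scarce to test. Mirg had 20 UMIs in 24430 cells and H19 had 27, of which 14 and 22 were in stem-gated cells. Mirg was at 1.23 CPM in the stem-gated cells of knockout-labelled replicate 2 and at most 0.187 CPM in those of the other libraries. H19 reached 0.33 CPM in WT-labelled replicate 4, where 15 of its UMIs were counted, and was not detected in 2 libraries. At this depth no difference in either gene could be shown.

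Cdkn1c was higher in stem-gated cells of all 7 libraries. Its stem-gated levels were 15.8, 7.2 and 4.41 CPM in the knockout-labelled libraries and 11.3, 8.41, 11.7 and 4.37 CPM in the WT-labelled ones. Other progenitors stood between 0.973 and 3.85 CPM, below every stem-gated value. The log2 fold change was 1.80 (SE 0.14, adjusted p 4.45e-06, edgeR), and 708 of 1048 UMIs (67.6%) came from stem-gated cells.

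Grb10, the insulin and IGF receptor adaptor, likewise showed no overlap. Stem-gated cells stood at 41.1, 62.5 and 22.1 CPM in the knockout-labelled libraries and at 43.2, 37.3, 31.5 and 18.5 CPM in the WT-labelled ones. Other progenitors stood at 5.90 to 17.2 CPM, with a median of 7.78. The list B libraries were the lowest of the stem-gated values under both labels. The log2 fold change was 1.71 (SE 0.13, adjusted p 3.80e-06, edgeR).

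Ndn was higher in stem-gated cells within every library, while its level differed more between the barcode lists. Stem-gated cells stood at 8.40 and 6.17 CPM in knockout-labelled replicates 1 and 2 and at 8.17, 5.44 and 7.02 CPM in WT-labelled replicates 1 to 3, but at 16.8 and 22.8 CPM in the list B libraries. Other progenitors ranged from 0.890 to 2.36 CPM in list A and were at 5.86 and 8.25 CPM in list B. The pooled values therefore overlapped, and the within-library log2 fold change was 1.72 (SE 0.17, adjusted p 3.06e-05, edgeR). Within list A alone it was 2.13 (SE 0.24) and within list B alone 1.40 (SE 0.07, with 1 residual degree of freedom).

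Igf2r rose little and not in all libraries. Its stem-gated levels were 7.81, 16.7 and 4.00 CPM in the knockout-labelled libraries and 16.5, 18.5, 21.3 and 6.55 CPM in the WT-labelled ones, against 1.66, 5.84 and 2.58 CPM and 14.7, 12.8, 24.8 and 4.31 CPM in other progenitors. Only WT-labelled replicate 3 had the lower value in stem-gated cells. The log2 fold change was 0.55 (SE 0.21, adjusted p 0.0484, edgeR), and the call was lost without any one of 5 libraries: knockout-labelled replicates 1 (adjusted p 0.0778), 2 (0.125) and 3 (0.0736) and WT-labelled replicates 2 (0.078) and 4 (0.0882), and within list A alone (0.118). In all, 10 of 22 alternatives lost the call. Counted per cell, no difference was shown: 121 ± 72.3 UMIs per 1000 stem-gated cells and 119 ± 103 per 1000 other progenitors (SD, n = 7), higher in 5 of 7 libraries (exact sign-flip permutation p 0.922).

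Gnas was abundant and nearly level across states. Stem-gated cells stood at 546 to 700.5 CPM in list A and at 174 and 234 CPM in list B, other progenitors at 520 to 611 CPM and at 183 and 239 CPM. The log2 fold change was -0.11 (SE 0.054, adjusted p 0.0963, edgeR), and Gnas was the 1 tested member not called. It was called lower in 4 of 22 alternatives: a gate of at least 4 markers (-0.16, adjusted p 0.03), gates set after thinning (-0.17, 0.0226), list B alone (-0.14, 0.00951) and against Flt3 multipotent cells only (-0.12, 0.0267). The lists differed far more than the states. Gnas counts pool transcripts from several promoters that share their 3′ exons, and only some of those transcripts are imprinted.

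Except for ungated cells (a median of 6374 UMIs), the states of the other progenitors had more RNA per cell than stem-gated cells (7989). Medians were 8994 UMIs in Flt3 multipotent and 16259 in granulocyte-monocyte cells. A share of UMIs and a number per cell therefore need not agree. Counted per 1000 cells, Meg3 gave 152 ± 91.2 UMIs in stem-gated cells and 31.2 ± 22.6 in other progenitors (SD, n = 7). Grb10 gave 323 ± 93.3 and 124 ± 60.5, Cdkn1c 82.1 ± 38.3 and 31.5 ± 19.5, Ndn 99.6 ± 65.4 and 38.7 ± 29.8, and Rian 21.0 ± 15.9 and 4.78 ± 6.18. These 5 genes were higher per stem-gated cell in 7 of 7 libraries (exact sign-flip permutation test over libraries, two-sided p 0.0156, the smallest that 7 libraries allow, Benjamini-Hochberg adjusted over 14 tests 0.0219). Gnas was lower per cell in 7 of 7 libraries, at 4434 ± 1806 against 6301 ± 2852 UMIs per 1000 cells (exact p 0.0156, adjusted 0.0219). The share of all genes that were higher or lower per cell in 7 of 7 libraries was not computed, so these counts have no background.

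Set against single states, the stem gate was not equally distinct for all genes. Against Flt3 multipotent cells, where 16.2% of genes were called higher, Grb10 rose by 2.95 (SE 0.29, adjusted p 0.000116, edgeR) on the log2 scale, Meg3 by 2.74 and Cdkn1c by 2.11. Against granulocyte-monocyte cells, where 33.3% were called higher, Rian rose by 3.39, Meg3 by 3.29 and Igf2r by 2.45. Against ungated cells, where 5.02% were called higher and 4.35% lower, the differences were smaller: Meg3 rose by 1.23 (SE 0.15, adjusted p 3.99e-07, edgeR), Grb10 by 0.92, Cdkn1c by 0.85 and Ndn by 0.66. Rian (0.77, adjusted p 0.332) and Igf2r (0.11, adjusted p 0.771) did not pass there. These single-state comparisons were added after the data had been seen.

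Igf2r was highest in the lymphoid state, cells with at least 2 of Dntt, Rag1, Rag2, Il7r, Ccr9, Igll1 and Vpreb1. Lymphoid levels were 14.5, 19.6 and 11.9 CPM in the knockout-labelled libraries and 42.4, 31.6, 42.1 and 8.03 CPM in the WT-labelled ones, a mean of 24.3 ± 14.3 (SD, n = 7). The knockout-labelled list A values rest on 4 and 5 UMIs. Stem-gated cells, at 13.1 ± 6.77 CPM, lay below them in all 7 libraries, with a log2 fold change of -0.96 (SE 0.15, adjusted p 4.38e-07, edgeR), so the direction of Igf2r depended on the state it was set against. Airn, a noncoding RNA that overlaps Igf2r on the opposite strand, had the pattern most like it. Whether the counting used strand is not given in the sources used here, so reads of this pair cannot be told apart.

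**Figure D2:**
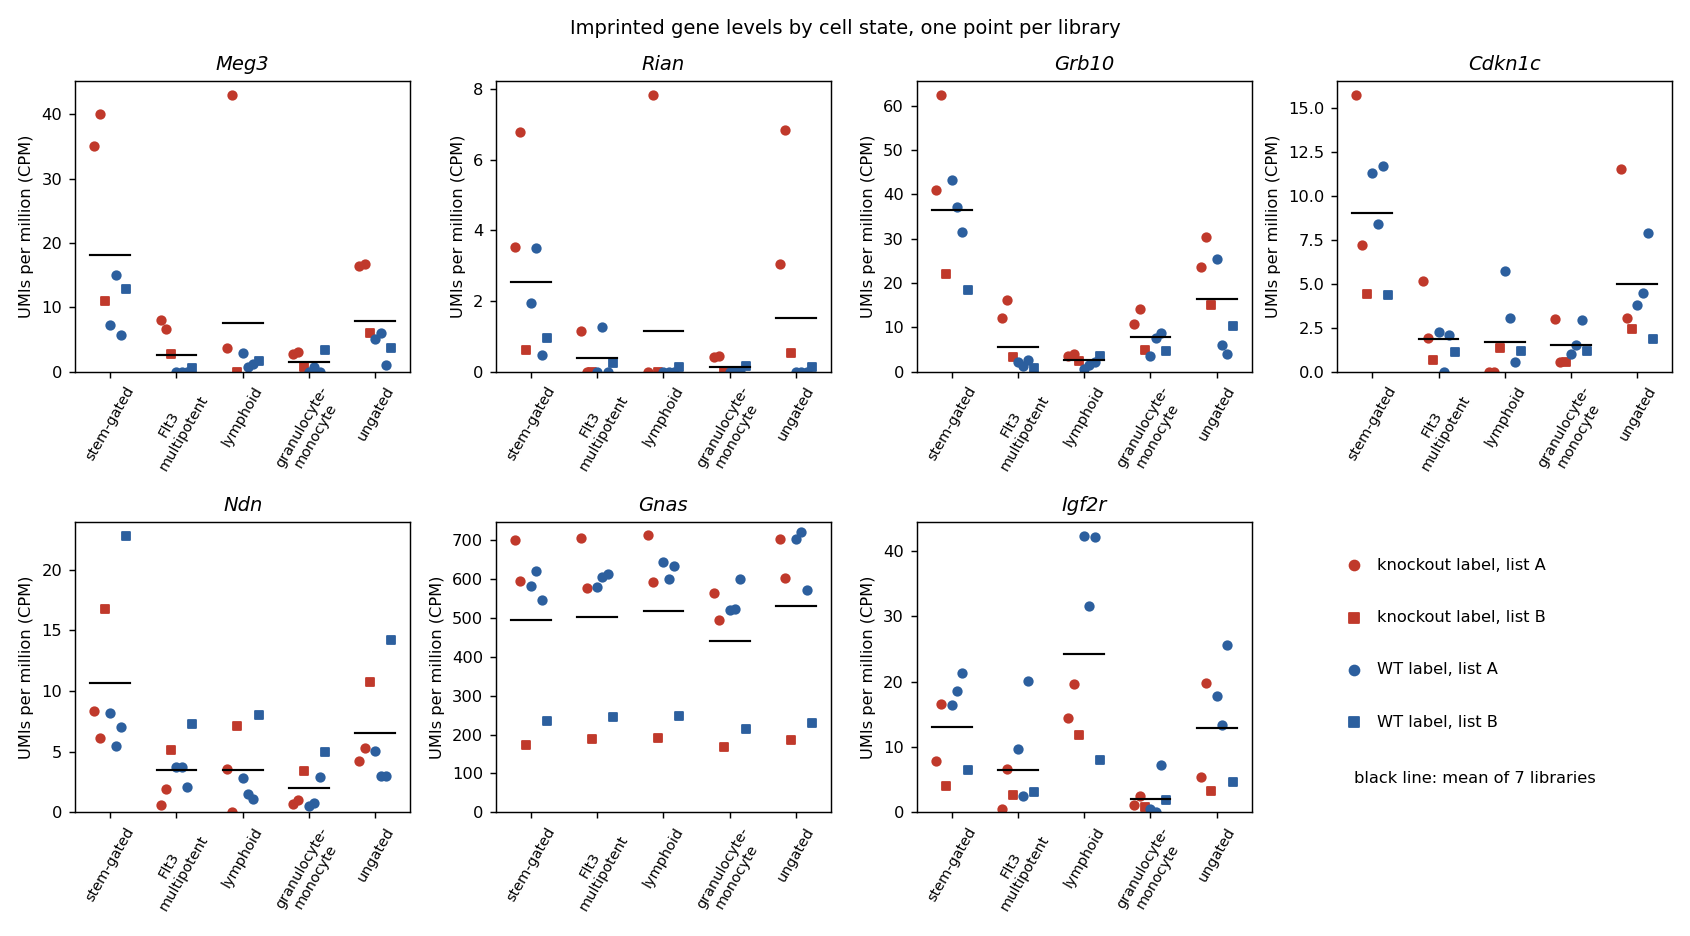
CPM of 7 imprinted genes in 5 cell states, 1 point per library with at least 20 cells of the state (red for the knockout label, blue for WT, squares for list B) and a black line at the mean. Stem-gated cells are highest on average for Meg3, Rian, Grb10, Cdkn1c and Ndn, lymphoid cells for Igf2r, and Gnas separates the barcode lists in every state.

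Meg3 in the lymphoid state had a mean of 7.60 ± 15.7 CPM (SD, n = 7), most of which came from 1 cell. Knockout-labelled replicate 2 stood at 43.1 CPM there from 11 UMIs, all in 1 of its 28 lymphoid cells, while the other libraries stood at 0 to 3.62 CPM. In all, 32 Meg3 UMIs were counted in 12 of 1252 lymphoid cells, 13 of them in WT-labelled replicate 4. The other high points of single states were in the list B libraries, the only ones with at least 20 megakaryocyte, erythroid or basophil/mast cells. There Grb10 in erythroid cells was at 22.8 CPM (knockout-labelled replicate 3) and 26.3 CPM (WT-labelled replicate 4), beside 22.1 and 18.5 CPM in the stem-gated cells of the same libraries. Ndn in megakaryocyte cells was at 18.9 and 19.1 CPM, beside 16.8 and 22.8 CPM in stem-gated cells. Meg3 in megakaryocyte cells was at 12.4 and 6.37 CPM and in erythroid cells at 0 (which allows up to 1.76) and 2.36 CPM, beside 11.0 and 12.9 CPM in stem-gated cells. With 2 libraries these values were not tested.

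By share of cells with at least 1 UMI, Meg3 was found in 6.33% ± 3.44 (SD, n = 7) of stem-gated cells and in 1.2% ± 0.960 of granulocyte-monocyte cells, which had the deeper profiles. After each cell was thinned to 3000 UMIs, the shares were 4.06% ± 2.61 and 0.651% ± 0.583. Grb10 went from 20.5% ± 4.12 of stem-gated and 8.46% ± 3.33 of granulocyte-monocyte cells to 10.1% ± 3.17 and 2.71% ± 2.03. Over all kept cells 842 of 24430 had a Meg3 UMI, and 186 of them held 50% of its UMIs, with up to 14 in 1 cell. Ndn was spread more evenly, with at most 5 UMIs in a cell and 50% of its 2435 UMIs in 907 of 2124 cells.

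The more stem markers a cell had, the higher most of these levels were. Over cells with no committed gate, Meg3 averaged 0.0819, 2.73, 6.59, 12.1, 17.0, 25.1 and 41.6 CPM with 0, 1, 2, 3, 4, 5 and at least 6 markers. Grb10 went from 6.62 ± 9.04 CPM with 0 markers to 66.2 ± 23.1 with at least 6, and Ndn from 1.24 ± 2.17 to 18.3 ± 10.7 (SD, n = 7). Cdkn1c was at 3.39, 2.96 and 3.42 CPM with 0, 1 and 2 markers and reached 13.2 with 5. Gnas moved little, from 533 to 479 CPM. On the 2 sides of the gate, Meg3 stood at 6.59 ± 7.60 CPM with 2 markers and at 12.1 ± 13.1 with 3 (SD, n = 7), with the higher value at 3 markers in 6 of 7 libraries. The exception was knockout-labelled replicate 3, at 5.49 and 5.02 CPM, and Grb10 had the higher value at 3 markers in 7 of 7. Cells with more markers were also deeper, with a mean of library medians of 6661 UMIs at 0 markers and 9818 at 6 or more, and the part of depth in these steps was not tested.

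**Figure D3:**
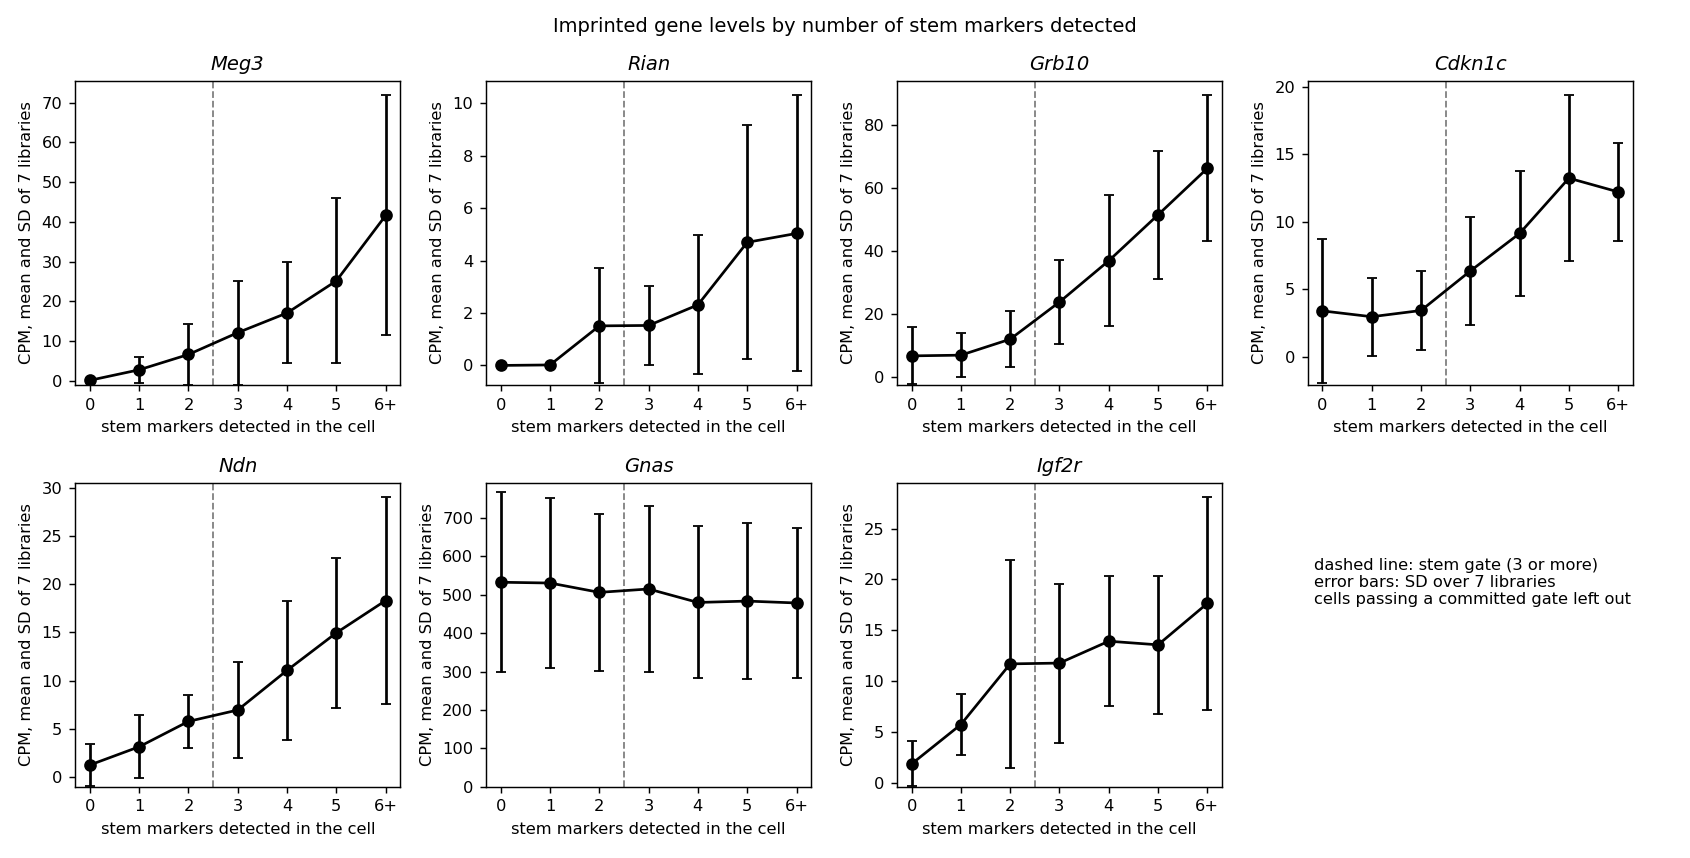
Mean CPM and SD over 7 libraries against the number of stem markers detected in a cell, for cells with no committed gate, with the stem gate as a dashed line. Meg3, Grb10 and Ndn are higher at every step, up to 41.6, 66.2 and 18.3 CPM, while Gnas stays between 479 and 533 CPM.

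Within the stem gate, the share of UMIs from Meg3, Rian, Grb10, Ndn, Cdkn1c and Igf2r was higher in cells called non-cycling. H19 and Mirg were too scarce to test. Cells with at least 2 of 9 proliferation genes, such as Mki67 and Top2a, were called cycling (3847 cells) and the rest non-cycling (7290 cells). Non-cycling thus means fewer than 2 of these genes detected, which also depends on depth. Meg3 stood at 52.1, 70.9 and 17.9 CPM in non-cycling cells of the knockout-labelled libraries and at 9.55, 13.1 and 3.22 CPM in their cycling cells. In the WT-labelled libraries it stood at 14.6, 23.2, 11.0 and 20.7 CPM in non-cycling cells and at 1.81, 9.64, 0.893 and 4.27 CPM in cycling ones. Every library had the higher value in its non-cycling cells, and the log2 fold change was 2.27 (SE 0.13, adjusted p 2.82e-15, edgeR).

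In that comparison 53.4% of 13215 genes were called and 27.3% were higher and 26.1% lower in non-cycling cells, and 6 of the 7 tested imprinted genes were higher. Rian rose by 1.6 (SE 0.27) on the log2 scale and Grb10 by 1.17 (SE 0.07). Ndn rose by 0.83 (SE 0.10) and Cdkn1c by 0.72 (SE 0.14), and Igf2r by 0.33 (SE 0.11, adjusted p 0.00886, edgeR). The Igf2r call was lost after thinning to 3000 UMIs (0.19, adjusted p 0.394), when the gates too were set after thinning (0.024, adjusted p 0.963), with a stem gate of at least 2 markers (adjusted p 0.109) and within list B alone (adjusted p 0.122). Gnas had a log2 fold change of 0.008 (adjusted p 0.885, edgeR).

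Cycling cells carried more RNA, with library medians of 9334 to 15527 UMIs against 4892 to 8337 in non-cycling cells, and the genes divided once counted per cell. Meg3 was still higher per non-cycling cell, at 194 ± 115 against 72.5 ± 49.4 UMIs per 1000 cells (SD, n = 7), as were Rian (24.7 ± 19.2 and 14.7 ± 11.5) and Grb10 (354 ± 113 and 271 ± 66.3), each in 7 of 7 libraries (exact sign-flip permutation p 0.0156, adjusted over 14 tests 0.0219). Cdkn1c gave 80.7 ± 35.9 and 87.4 ± 54.0 UMIs per 1000 cells and was higher in 4 of 7 libraries (exact p 0.859, adjusted 0.922). Ndn gave 101.4 ± 61.3 and 96.6 ± 74.4 and was higher in 6 of 7 (exact p 0.422, adjusted 0.492). Igf2r was lower per non-cycling cell in 6 of 7 libraries, at 103 ± 55.0 against 149 ± 100.5 (exact p 0.0312, adjusted 0.0398), opposite to its share of UMIs. For Cdkn1c and Ndn the rise was therefore one of the share of the cell's RNA, and no difference per cell was shown. Cdkn1c in knockout-labelled replicate 1 had the higher share in cycling cells, 16.9 against 15.0 CPM. The share of all genes higher or lower per non-cycling cell was not computed.

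Rian was found more often in cells that had Meg3, though most Meg3 cells had no Rian UMI. Among stem-gated cells 97 of 643 with a Meg3 UMI also had a Rian UMI (15.1%), against 34 of 10494 without Meg3 (0.324%). The Meg3 cells had the fewer UMIs, a median of 6132 against 8142. The share of Rian cells among Meg3 cells ran from 5.76% in knockout-labelled replicate 3 to 26.2% in WT-labelled replicate 2, and among the rest it was at most 0.813% in any library. Mirg followed with 9 of 643 cells against 4 of 10494. The neighbours are transcribed in one direction, and whether reads of 1 long transcript were split between the gene names was not tested.

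**Figure D4:**
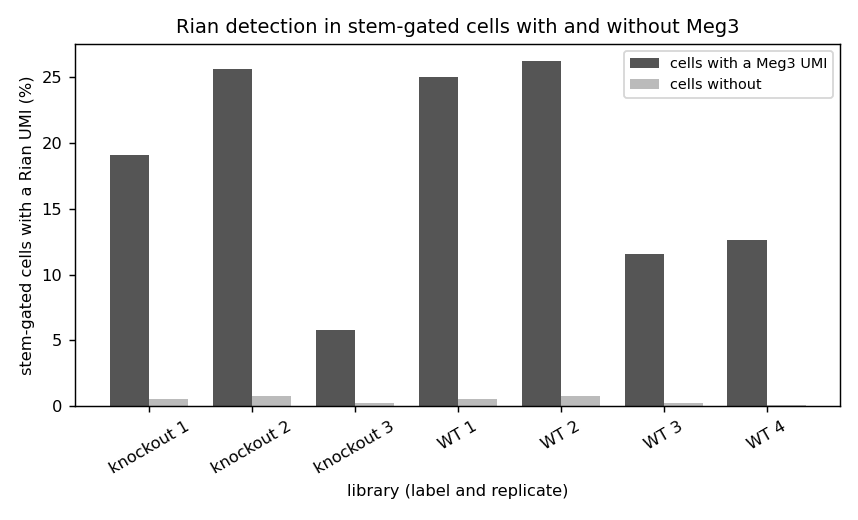
Percent of stem-gated cells with a Rian UMI in each of the 7 libraries, among cells with (dark bars) and without (light bars) a Meg3 UMI. The dark bars run from 5.76% to 26.2% and the light bars stay at or below 0.813%.

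The unlinked genes were found together less sharply. Grb10 was detected in 31.1% of Meg3 cells and 16.9% of the others, Ndn in 21.3% and 12.3%, and Cdkn1c in 10.4% and 5.37%. Igf2r was detected in 8.86% and 7.60%, and Gnas in 75.9% and 83.2%, for Gnas the direction of the depths. All these percentages pool the libraries. By library, Igf2r was less frequent among Meg3 cells only in WT-labelled replicate 4 (5.46% and 5.91%). Gnas was more frequent among them only in knockout-labelled replicate 1 (96.4% and 95.7%). Grb10 was the more frequent among Meg3 cells in all 7 libraries, while Ndn in knockout-labelled replicate 2 (3.49% and 4.07%) and Cdkn1c in knockout-labelled replicate 1 (9.52% and 10.8%) were not. These are cells of the same libraries and were not tested.

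Between the labels, no imprinted gene was called in stem-gated cells. With the barcode list as a covariate edgeR called 16 of 13756 genes (0.116%, with 0.0727% higher and 0.0436% lower under the knockout label) and 0 of the 7 tested imprinted genes, with Igf2r (p 0.0105) and Grb10 (p 0.0298) at an unadjusted p below 0.05 and 0 imprinted genes called by DESeq2. Meg3 had the largest difference of the 7. Its stem-gated levels, given above, were 28.7 ± 15.5 CPM (SD, n = 3) under the knockout label and 10.2 ± 4.43 (SD, n = 4) under WT, and the groups overlapped. The log2 fold change was 1.31 (SE 0.56, adjusted p 1.00, edgeR).

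The Meg3 values are given within each barcode list as well. Within list A the 2 knockout-labelled libraries (35.1 and 40.1 CPM) lay above the 3 labelled WT (7.28, 15.0 and 5.71), with a log2 fold change of 2.02 (SE 0.31, adjusted p 0.0377, edgeR, where 0.181% of genes were called). Within list B the log2 ratio was -0.23, from 1 library per label. The test of the difference between the lists gave 2.25 (SE 0.56, unadjusted p 0.00215, adjusted p 0.981, edgeR over 14371 genes, 1 of which was called). A difference between the lists was therefore not shown. Leaving out either list B library from the fit over all libraries (adjusted p 0.0449 and 0.0382) leaves only the list A comparison and adds nothing to it. Other progenitors stood at 3.39 and 5.52 CPM against 0.506 to 1.47 in list A, and at 2.14 against 2.13 in list B. Rian in list A stood at 3.53 and 6.78 CPM against 0.468 to 3.49 and did not pass (log2 fold change 1.42, adjusted p 0.917, edgeR).

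Markers of another state moved with the label in the same cells. The summed granulocyte-monocyte genes (Elane, Prtn3, Ctsg, Ms4a3, Csf1r and Ly86) stood at 462 to 508 CPM in stem-gated cells of the 3 knockout-labelled libraries and at 173 to 293 CPM in the 4 labelled WT. The stromal and endothelial sum of 10 genes stood at 123 to 242 and 135 to 226 CPM. The part of these in the Meg3 values was not tested.

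Igf2r stood at 9.49 ± 6.49 CPM (SD, n = 3) under the knockout label and at 15.7 ± 6.43 (SD, n = 4) under WT in stem-gated cells, with overlapping groups and a log2 fold change of -0.67 (SE 0.22, adjusted p 0.592, edgeR). Grb10 had a log2 fold change of 0.40 (SE 0.16, adjusted p 0.868, edgeR) and Rian of 0.81 (SE 0.58). Cdkn1c, Ndn and Gnas lay between -0.12 and 0.11, and each changed sign when some single library was left out.

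**Figure D5:**
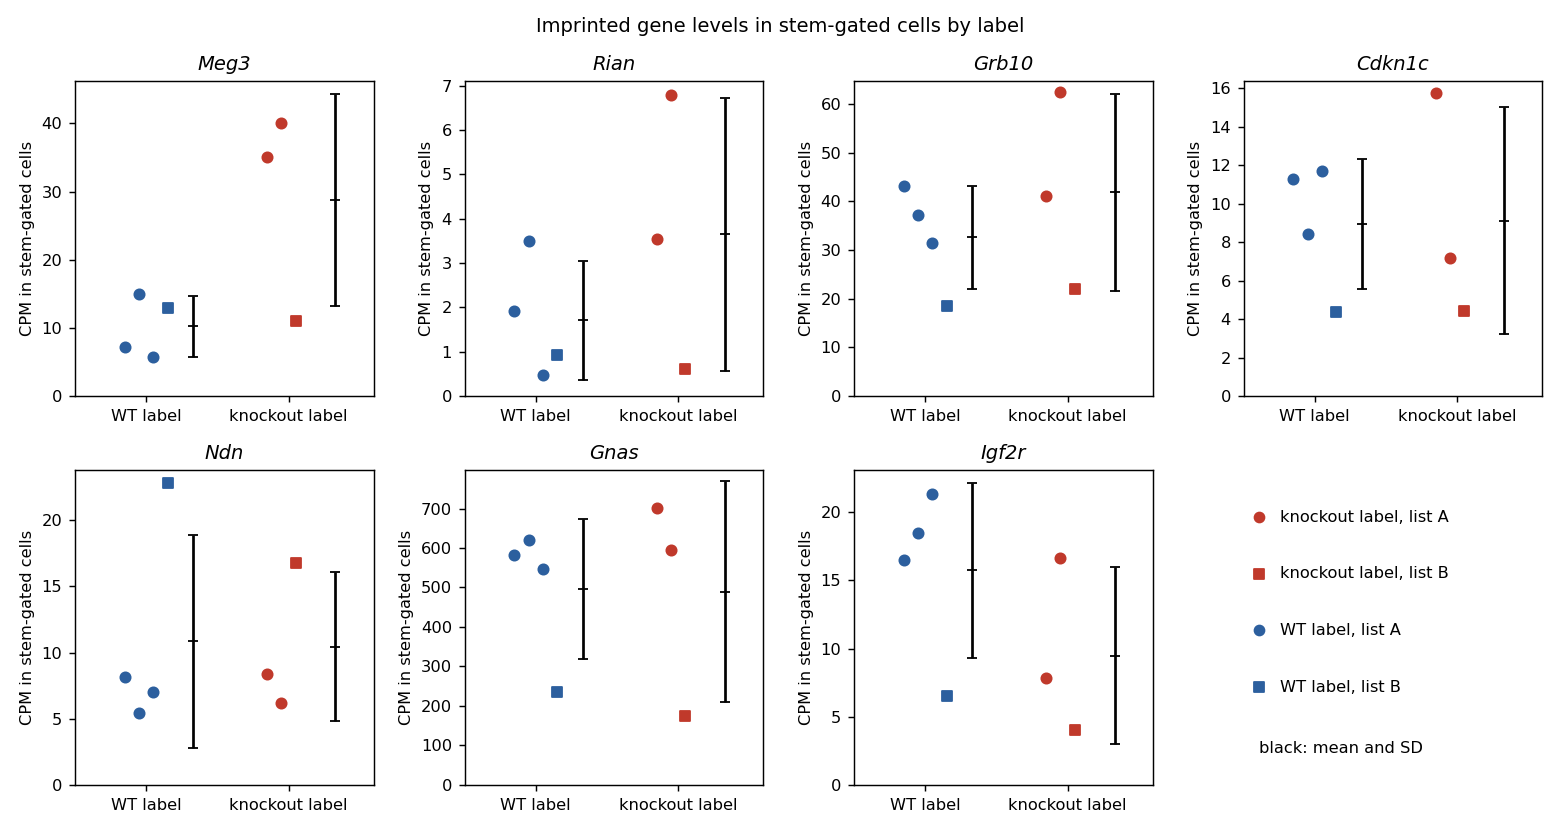
CPM in stem-gated cells by label for 7 imprinted genes, 1 point per library (squares for list B), with the mean and SD in black. For Meg3 the list A libraries with the knockout label stand at 35.1 and 40.1 CPM, above all others, while the list B library with that label stands at 11.0.

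Over all kept cells, edgeR called 162 of 15149 genes between the labels (1.07%, with 0.462% higher and 0.607% lower under the knockout label) and 0 of the 7 imprinted genes, with Ndn (p 0.00317) and Igf2r (p 0.00261) at an unadjusted p below 0.05. Igf2r was at 5.07 ± 3.29 CPM under the knockout label and 15.3 ± 7.27 under WT (SD, n = 3 and 4), a log2 fold change of -1.32 (SE 0.32, adjusted p 0.0961, edgeR). Ndn had -0.80 (SE 0.21, adjusted p 0.103, edgeR). DESeq2 called both, with adjusted p of 0.00279 and 0.0244, among 855 of 15892 genes called. The share of stem-gated cells also differed between the labels, as given above. Lymphoid cells were 1.01% to 3.27% of kept cells under the knockout label and 6.66% to 8.07% under WT. The part of these shares in the values over all cells was not tested.

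Whether the label effect differed between stem-gated cells and other progenitors was tested directly. edgeR called 0 of 14520 genes (0%), with 1271 at an unadjusted p below 0.05 and 13 called by DESeq2, 0 of them imprinted genes listed here. Igf2r had the largest difference, 1.02 (SE 0.32, adjusted p 0.497, edgeR). It was 1.62 (adjusted p 0.00108) in list A alone, where Grb10 also passed (-0.68, adjusted p 0.0263), and 1.5 (adjusted p 0.00215) without knockout-labelled replicate 3, where Ndn passed too (1.12, adjusted p 0.0286). Those 2 fits called 1522 of 13660 and 2232 of 14010 genes in all. In list A, Igf2r in other progenitors stood at 1.66 and 5.84 CPM under the knockout label and at 12.8 to 24.8 under WT, while stem-gated values lay closer, at 7.81 and 16.7 against 16.5 to 21.3.

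Other imprinted genes went mostly the same way between the states. Of a list of 52, 51 were in the files and 29 passed the filter, of which 20 were higher in stem-gated cells, 3 were lower (H13, Nap1l4 and Commd1) and 6 were not called, beside 23.8% and 29.5% of all genes. Their median log2 fold change was 0.46. Those with the smallest p were Ppp1r9a (0.97, SE 0.09), Gab1 (0.79, SE 0.09), Slc22a18 (1.16, SE 0.13), Phlda2 (1.85, SE 0.20), Peg10 (1.67, SE 0.23) and Sgce (1.22, SE 0.18), with adjusted p, from edgeR, between 2.30e-05 and 0.000359. Phlda2 and Slc22a18 lie in the same imprinted domain of chromosome 7 as Cdkn1c, and Peg10, Sgce and Ppp1r9a neighbour each other on chromosome 6. Within the stem gate 19 of 29 were higher and 3 lower in non-cycling cells, beside 27.3% and 26.1% of all genes. Between the labels 0 of 29 were called in stem-gated cells, beside 0.116% of all genes. Several of the list overlap other genes (Airn with Igf2r, Peg13 with Trappc9, Mcts2 with H13), and their reads are uncertain.

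The genes whose pattern was most like each member's were found by correlating log2(CPM + 1), centred within libraries, over 51 sums of a state in a library, for members with a mean of at least 5 CPM. Meg3 was followed by Npdc1 (Pearson r 0.82), Nbea (0.81) and Magi2 (0.79). Grb10 was followed by Tfr2 (0.85), C530008M17Rik (0.82) and Tgfbr3 (0.82), and Ndn by Mageh1 (0.88), Vegfc (0.82) and Agmo (0.81). Gnas was followed by Dis3l2 (0.90), Rasal3 (0.89) and Ptprs (0.89), and Igf2r by Airn (0.83), AA467197 (0.77) and Klf3 (0.76). Mageh1 is, like Ndn, a gene of the MAGE family. The sums share libraries and differ in depth, and the values are a description.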

How the data were processed

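For each of 7 libraries the authors deposited a matrix of UMI counts, whose header names Cell Ranger 7.0.0, and the submitters' processing notes also name Seurat 4.4.0 and the build mm10. The annotation, the strand setting and the counting of introns are not given in the sources used here. The labels' protocols name a 3′ kit. Barcodes with at least 1000 UMIs, 500 genes and at most 10% mitochondrial UMIs were kept. Scrublet (scanpy 1.11.5) marked under 0.5% of cells in each of the 7 libraries and so did not work, and doublets remain (an alternative removed the 1348 highest scores).

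Raw counts were summed per library and state (at least 20 cells) and tested with edgeR 4.0.16 (quasi-likelihood, TMM, filterByExpr), two-sided, with Benjamini-Hochberg adjustment over all genes tested and a threshold of 0.05. State and cycle comparisons had the library as a block and label comparisons the barcode list as a covariate. Standard errors are the absolute log2 fold change over the root of F. CPM are plain UMI counts scaled to the total of a sum. Alternatives left out each library or the gene filter, or used DESeq2 1.42.0, list A alone, other cell filters and gates, thinning to 3000 UMIs and a replicate block. Tests of UMIs per cell, list B alone, single states, non-cycling cells alone, a state by list term and the gate without Hlf, Fgd5 and Trpc6 were added after the data were seen. The fits to list B alone left 1 residual degree of freedom. Tested on simulated data in which 200 genes differed by 2 on the log2 scale, the state fit recovered 97.5% (8.88% of its calls false, 14370 genes) and the label fit in stem-gated cells 95% (5.47%, 13567 genes). Counts of any pair of libraries differed by at least 20.05 times the sampling noise (chi-square per degree of freedom). Positions come from the GRCm38 annotation (GENCODE M21) and promoters and hairpins from RefSeq GRCm38.p6. All 9 genes and the list of other imprinted genes (named: called in the state fit, up to the 6 with the smallest p) were chosen with earlier results of these data known.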

Additional observations from a re-analysis of the deposited data

Results flagged for a closer look

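Of 28 groups of 4 to 7 values examined, 5 had a sample that stood apart from the others, where chance flags about 1 in 20 groups. Ndn in WT-labelled stem-gated sums was 22.81 CPM in replicate 4 and 5.435 to 8.171 in the others. In WT-labelled other progenitors Ndn was 8.255 CPM in replicate 4 and 1.681 to 2.359 in the others, and Gnas was 239 CPM there against 595.3 to 611.2. Replicate 4 is the only WT-labelled library of list B, and the knockout-labelled list B library lay on the same side for both genes. The log2 ratio of Ndn between stem-gated cells and other progenitors was 3.238 in knockout-labelled replicate 1, from 57 and 31 UMIs, and 1.466 to 2.079 in the other 6 libraries. That of Cdkn1c was 2.886 in knockout-labelled replicate 2, from 35 and 12 UMIs, and 1.57 to 2.085 in the others.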

How the results depend on the processing

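Between the states Meg3, Grb10, Cdkn1c and Ndn were past the threshold in all 22 alternatives run and Rian in 21. Igf2r was past it in 12, and 1 of these, against lymphoid cells only, was in the lower direction. The count of members called in either direction ran from 4 to 7 there and from 4 to 6 between non-cycling and cycling cells. The calls over all genes moved too. Between the states they were 1315 of 14033 against ungated cells only and 8657 of 14216 against granulocyte-monocyte cells only. Between non-cycling and cycling cells they were 2791 of 10414 with gates set after thinning. In the cycling comparison Meg3, Grb10, Cdkn1c and Ndn passed in all 17. Thinning to 3000 UMIs left Rian below the filter on counts in the cycling comparison, so it has no value there. Gnas was 0.022 against granulocyte-monocyte cells only, and Igf2r -0.96 against lymphoid cells only. Gnas between non-cycling and cycling cells was -0.0021 without a gene filter, -0.0055 after thinning, -0.11 within list B alone (adjusted p 0.013), and -0.021 to 0.030 with 1 library left out.

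In stem-gated cells the labels gave 0 members called in the main fit, 2 without a gene filter (Meg3 and Igf2r), 1 in list A alone, and 0 to 1 with 1 library left out, the 1 being Meg3 without knockout-labelled replicate 3 or WT-labelled replicate 4, which leaves the list A comparison. Over all kept cells DESeq2 called 2, beside 855 of 15892 genes in all. The label effect compared between states called 1 (Igf2r) without a gene filter, where 541 of 25062 genes were called in all. That comparison called 2 in list A alone, and 0 to 2 with 1 library left out, the 2 without knockout-labelled replicate 3. Some label effects changed sign, and the changed values were not past the threshold. In stem-gated cells, with 1 library left out, Cdkn1c ran from -0.27 to 0.35, Ndn from -0.33 to 0.097 and Gnas from -0.16 to 0.15. Cdkn1c was -0.033 and Gnas 0.0027 in non-cycling cells alone, Ndn 0.088 and Gnas 0.15 in list A alone, and Gnas 0.0025 after thinning. Over all kept cells, with 1 library left out, Rian ran from -0.40 to 0.78, Grb10 from -0.14 to 0.25 and Gnas from -0.20 to 0.052. In list A alone Grb10 was -0.00081 and Gnas 0.038. For the label effect between states, with 1 library left out, Meg3 ran from -0.25 to 0.33 and Ndn from -0.025 to 1.12. Meg3 was 0.053 with at most 5% mitochondrial UMIs and 0.69 with a stem gate of at least 2 markers, and Rian 0.34 with at least 2 and 0.26 with at least 4. The cause of these changes was not tested.

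Whether replicate numbers pair the libraries is not known. Deviations of same-numbered libraries correlated at 0.53 and 0.72 for replicates 1 and 2, each the highest value of that knockout-labelled library with any WT-labelled one. For replicate 3 the value was -0.36, but its knockout-labelled library is of list B and its WT-labelled one of list A. Knockout-labelled replicate 3 correlated at 0.89 with WT-labelled replicate 4, the other library of list B. With the replicate block, 1 member was called in stem-gated cells (Meg3, 1.82) and 3 over all kept cells (Meg3, Ndn and Igf2r), with 277 and 2699 genes called in all. Each of these fits left 1 residual degree of freedom. Under the replicate block Ndn was 0.11 and Gnas 0.11 in stem-gated cells, and Grb10 -0.094 and Gnas 0.033 over all kept cells. Counts of all genes called also moved: in stem-gated cells from 16 to 71 by DESeq2, 260 without a gene filter and 0 without the list covariate, and over all kept cells from 162 to 855, 547 and 0. Mirg, H19 and single-state values of Rian rest on a few UMIs, so depth limits them.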
